A study of Mus musculus with 55 samples.

Results

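The 9 genes described here, Herpud1, Atf4, Ddit3, Ddit4, Hspa5, Xbp1, Eif2ak3, Trib3 and Nupr1, belong to the unfolded protein response of the endoplasmic reticulum (ER) and to the integrated stress response. They were selected on results of these same libraries and were found as 9 of 33924 genes in the first count table and, through rows with identical exon coordinates, as 9 of 37310 features in the table of the Trim21 experiment. Which comparison led to the choice of each gene is not stated, so the values and tests below describe these genes and are no independent evidence that they stand out. The libraries are RNA sequencing of mouse oocytes, from a study of RNA G-quadruplexes, folded structures of guanine-rich RNA, and of DHX36 (also called RHAU), a helicase that unwinds them.

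Count tables were available for 26 libraries in 4 experiments. Growing oocytes gave 3 libraries labelled Dhx36_sko and 3 labelled control. The second experiment had 2 libraries each of rhau_sko with DRB, rhau_sko without DRB, c with DRB and c without DRB. DRB is an inhibitor of the kinase CDK9 that blocks elongation by RNA polymerase II, and its dose and time are not in the labels. Oocytes labelled GV, the usual abbreviation of the germinal vesicle stage, gave 3 libraries after 12 h of cPDS and 3 libraries of the control GV_C. The abbreviation cPDS is that of carboxypyridostatin, a ligand of RNA G-quadruplexes. The last experiment had 3 libraries of Trim21 at 3 h, with Dhx36 named in the titles, and 3 control libraries at 3 h. In Trim-Away the ubiquitin ligase TRIM21 and an antibody are put into a cell to have a chosen protein degraded. The shared extraction text names growing oocytes from control mice and from Dhx36 fl/fl;SKO mice, so the knockout is conditional. The labels neither expand sko nor name the Cre or the cells that express it, and they give no stage for the second experiment. Nothing states that replicates came from separate animals, so p-values measure the spread between these libraries, which may be technical.

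Unfolded proteins in the ER are sensed by the membrane proteins PERK (encoded by Eif2ak3), ATF6 and IRE1 (encoded by Ern1), which are held in check by the chaperone BiP (encoded by Hspa5). PERK and related kinases phosphorylate the initiation factor eIF2, which lowers most translation and raises translation of the Atf4 mRNA. ATF4 then raises transcription of Ddit3 (encoding CHOP), Trib3 and Ddit4, among other genes, and IRE1 activates XBP1 by splicing its mRNA. Counts per gene show neither the splicing of Xbp1 nor the phosphorylation and translation steps. Oocytes store large amounts of mRNA made during growth, and transcription falls as they reach full size.

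The promoters of Herpud1 and Hspa5 are printed because these genes share a known response to ER stress and moved in opposite directions after cPDS. The sequences are those of RefSeq on build GRCm38.p6, 250 bases ending just before the annotated start and written along the gene, chr8:94386179-94386428 on the plus strand for Herpud1 and chr2:34771840-34772089 on the plus strand for Hspa5. Capitals mark the ER stress response element II (ATTGG and CCACG with 1 base between them) and a composite C/EBP-ATF motif (TTGCATCA) in Herpud1, and the ER stress response element (CCAAT and CCACG with 9 bases between them) in Hspa5.
Herpud1: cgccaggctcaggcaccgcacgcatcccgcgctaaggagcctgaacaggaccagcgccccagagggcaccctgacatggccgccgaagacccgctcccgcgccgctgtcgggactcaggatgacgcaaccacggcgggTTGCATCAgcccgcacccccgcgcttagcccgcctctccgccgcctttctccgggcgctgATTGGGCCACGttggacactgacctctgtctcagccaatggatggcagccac
Hspa5: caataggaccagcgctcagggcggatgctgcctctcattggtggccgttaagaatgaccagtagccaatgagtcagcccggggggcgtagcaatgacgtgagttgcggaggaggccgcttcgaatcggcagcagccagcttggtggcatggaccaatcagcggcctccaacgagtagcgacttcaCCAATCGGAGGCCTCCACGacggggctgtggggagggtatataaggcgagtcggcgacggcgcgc
Both strands of 300 bases, 250 before and 50 after the start, were searched in all 9 genes and in all 27025 RefSeq promoters of that length. The ER stress response element was found in Hspa5 alone among the 9 and in 0.130% of all promoters. Its second form was found in Herpud1 alone among the 9 and in 0.0370% of all promoters. The C/EBP-ATF composite lay in Herpud1 and Nupr1 and in 0.929% of all promoters. The core TGACGTGG of the unfolded protein response element lay in none of the 9 and in 0.607% of all promoters. The plain CCAAT box, which is part of the ER stress response element and, read on the other strand, of its second form, lay in 6 of the 9 and in 37.9% of all promoters. A G-quadruplex pattern, 4 runs of at least 3 G with 1 to 7 bases between them on either strand, lay in Xbp1, Trib3 and Nupr1 and in 18.1% of all promoters. A match describes the letters only.

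Of the 26 libraries, 1 of c with DRB (129192 counts) and 1 of rhau_sko (127927 counts) were left out for having under 200000 counts, and the shallowest kept library had 7452742. On build mm9 the table placed Herpud1 (ENSMUSG00000031770.9) at chr8:96910338-96919277 on the plus strand, Hspa5 (ENSMUSG00000026864.7) at chr2:34627490-34632051 on the plus strand, Eif2ak3 (ENSMUSG00000031668.8) at chr6:70794509-70855239 on the plus strand and Ddit4 (ENSMUSG00000020108.3) at chr10:59412423-59414518 on the minus strand, with counts summed over exons. Totals of the kept libraries were 31930695 to 41075545 in growing oocytes, 23010562 to 40968105 in the 6 of the second experiment, 26509060 to 65444652 in GV oocytes and 7452742 to 32704737 in the Trim21 experiment. Values below are counts per 1e6 counts (CPM) normalised with TMM factors within each experiment, so levels set across experiments were normalised separately. Dhx36 itself was lower by 2.01 ± 0.24 (log2, SE) in growing sko, by 2.72 ± 0.17 in rhau_sko and by 1.99 ± 0.18 after Trim21, against its own control each time, and was higher by 0.73 ± 0.10 after cPDS. Trim21 RNA was at 7612 to 9301 CPM in the Trim21 libraries and 14.6 to 14.7 CPM in control at 3 h. That comparison thus also holds a difference in Trim21 RNA, whose part in the results was not tested. The 12 oocyte markers, Gdf9, Zp3 and Zp2 among them, summed to 8352 to 39491 CPM and none was at 0 in any group. The 16 granulosa and cumulus markers summed to 81.1 to 87.3 CPM in growing sko oocytes and 26.6 to 32.1 CPM in growing controls, with Ptx3 and Tnfaip6 at 0 in both. In growing sko Fshr (mean 37.0 CPM) and Cyp19a1 (20.1 CPM) gave much of the sum. Amh reached 0.078 CPM and Foxl2 0.027 CPM in growing sko, and each reached 0.166 CPM in growing controls. Fewer cells of a type and less RNA per cell cannot be told apart in such libraries.

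Per kilobase of exon, 3 genes made up most of the RNA of the 9 in nearly every group. In growing control oocytes Atf4 had a mean of 138 CPM per kilobase, Ddit3 41.7 and Hspa5 41.5, and the other 6 lay between 0.0744 and 0.679. In GV_C oocytes Hspa5 led with 102 CPM per kilobase, followed by Ddit3 with 53.4 and Atf4 with 51.5, and no other gene passed 2.72. Nupr1 was the exception in the c libraries, where its mean of 105 CPM per kilobase stood beside 102 for Hspa5, although its 2 libraries were at 55.1 and 155. Over the 10 groups the highest group mean in CPM was 1400 times the lowest for Nupr1, 307 times for Herpud1, 58.2 times for Ddit4 and 1.90 times for Ddit3. By this ratio of separately normalised means Ddit3, the CHOP gene, was the steadiest of the 9 and Nupr1 the least steady. The lowest means of Nupr1 (0.184 CPM, growing sko) and Herpud1 (0.174 CPM, growing control) rested on 21 and 18 counts. Ratios of such low genes depend on values near 0.

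**Figure D1:**
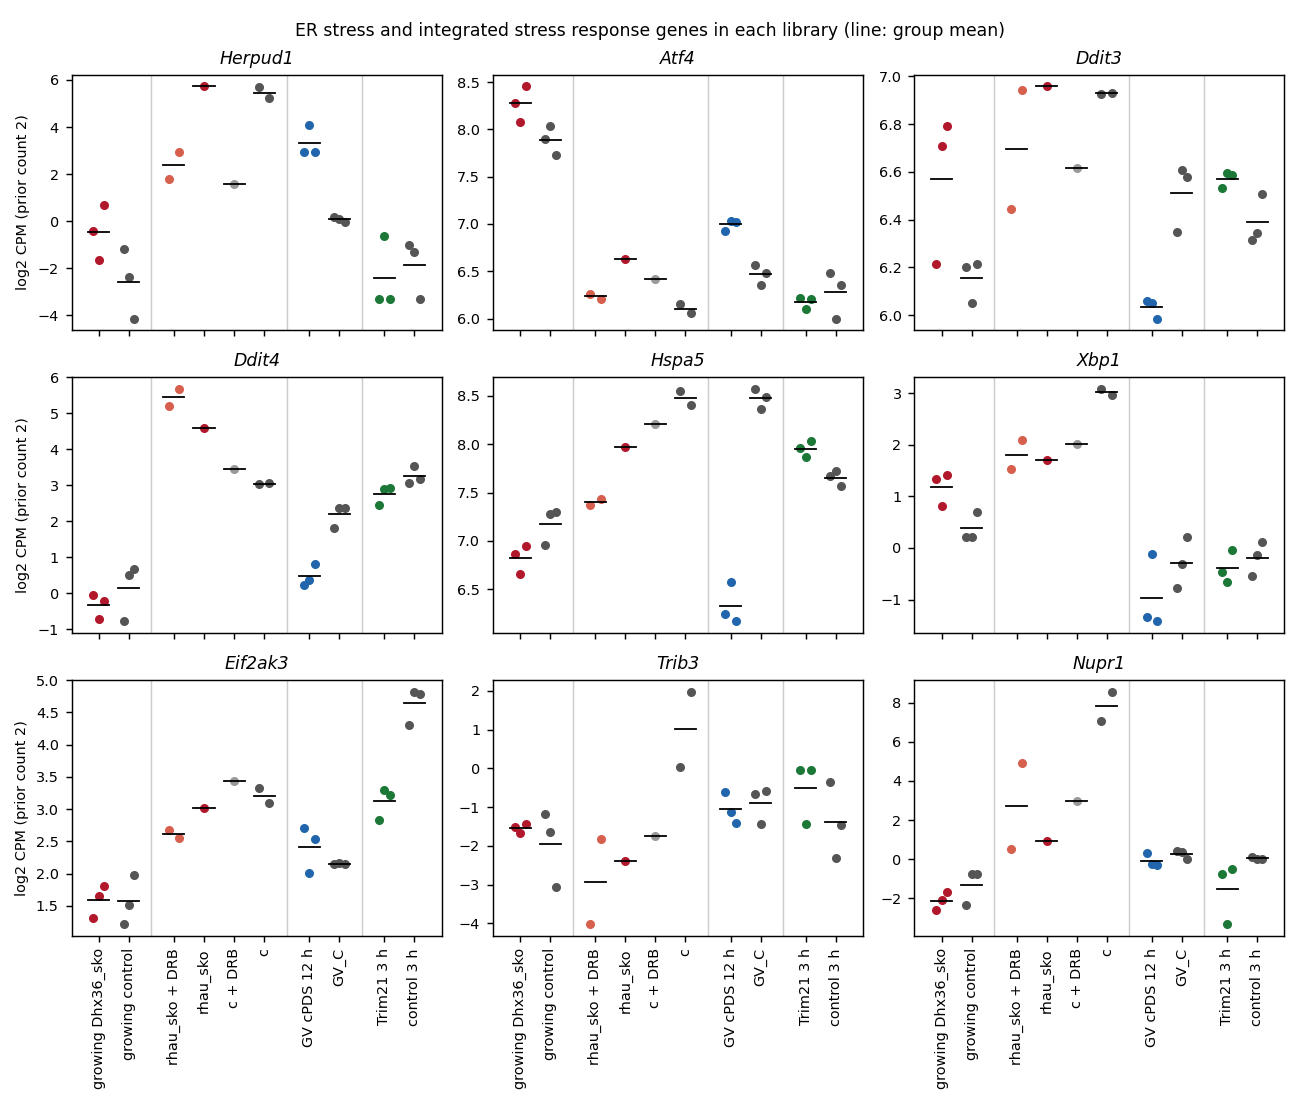
Level of each of the 9 genes in the 24 kept libraries, as log2 CPM with a prior count of 2 on the vertical axis (each panel has its own range) and the 10 groups on the horizontal axis. Points are libraries, short lines group means, and grey lines divide the 4 experiments, which were normalised separately. Herpud1 is highest in rhau_sko and c without DRB, and Nupr1 is highest in c.

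After 12 h of cPDS, GV oocytes had more Herpud1 mRNA and less Hspa5, Ddit4 and Ddit3 mRNA than GV_C oocytes, and slightly more Atf4. All 9 genes passed the filter on low counts, and 5 had an adjusted p under 0.05 in edgeR's quasi-likelihood test, 2 higher and 3 lower. This share stood beside 50.8% of all 16115 genes tested, 23.4% higher and 27.4% lower, so the count alone says little about the 9. The same 5 genes did not overlap between the groups, against 58.1% of all genes.

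With DRB, Herpud1 mRNA was far below its level without DRB in both genotypes, while Atf4, Ddit3 and Hspa5 stayed within 1.34-fold in the additive fit over the 6 libraries. Of the 8 genes tested, Herpud1 passed, against 0.0126% of all 15923 genes, with 0.00628% in each direction, and it had the smallest p of all of them. Herpud1 was also the only 1 of the 9 whose libraries with and without DRB did not overlap, against 10.4% of all genes. Trib3 was too low to be tested.

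In the same 6 libraries, rhau_sko differed from c by more Ddit4 and less Hspa5. These were 2 of 8 genes tested, beside 37.8% of all 15923 genes, 19.9% higher and 17.9% lower. The libraries of 4 genes did not overlap between the genotypes, Ddit4 on the higher side and Hspa5, Eif2ak3 and the untested Trib3 on the lower side, beside 49.0% of all genes tested.

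In growing oocytes, sko libraries had higher Atf4, Ddit3, Xbp1 and Herpud1 and lower Hspa5 than controls. These were 5 of 8 genes tested, beside 53.7% of all 14081 genes, 28.5% higher and 25.2% lower, and Nupr1 was too low to be tested. Libraries of 3 genes, Atf4, Xbp1 and Hspa5, did not overlap, beside 60.9% of all genes. Each of the 5 calls was lost when at least 1 library was left out, and the number of genes called then ranged from 1 to 4.

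At 3 h of Trim21, Eif2ak3 was lower than in control oocytes and no other member passed, which is 1 of 8 tested beside 11.5% of all 14191 genes, 6.26% higher and 5.23% lower. Herpud1 was too low to be tested. The libraries of 5 genes did not overlap, Ddit3 and Hspa5 on the higher side and Ddit4, Eif2ak3 and Nupr1 on the lower side, beside 30.1% of all genes.

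**Figure D2:**
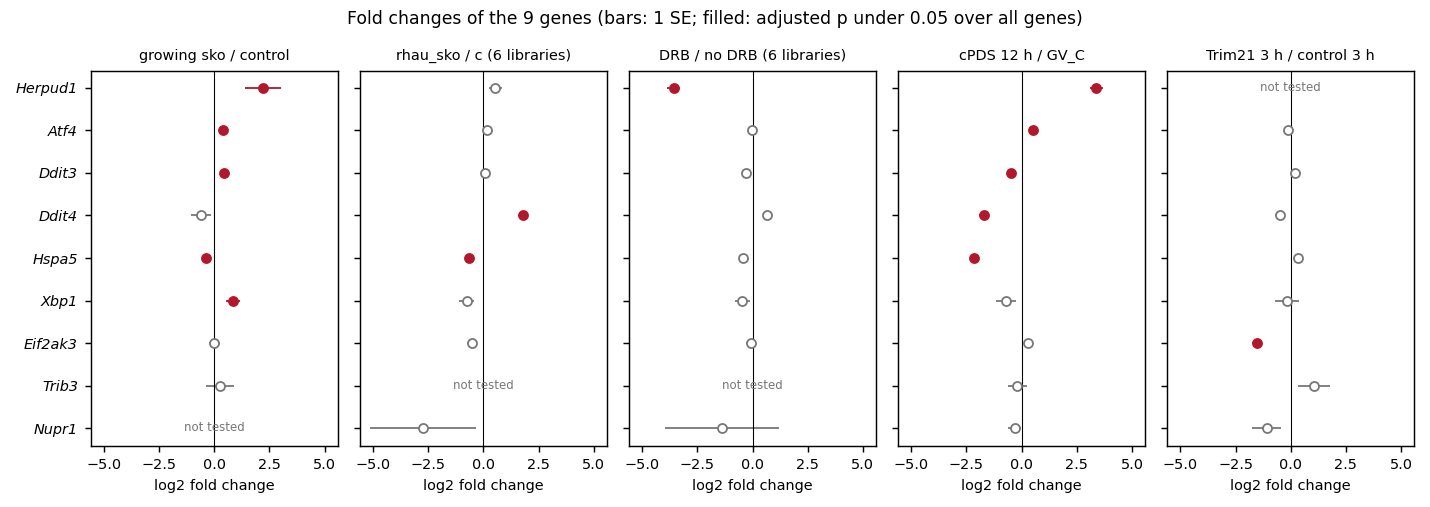
Log2 fold change of each of the 9 genes in the 5 comparisons, with bars of 1 SE, on a common horizontal axis with the group named first over the group named second. Filled red points have an adjusted p under 0.05 over all genes tested. The points of Herpud1 lie at -3.57 for DRB and 3.38 for cPDS.

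Herpud1 encodes an ER membrane protein that helps send misfolded proteins to degradation by the proteasome, and it is a textbook target of the unfolded protein response. Its level was 3.42 and 7.63 CPM in rhau_sko with DRB and 2.93 CPM in c with DRB, against 53.3 CPM in rhau_sko and 52.1 and 37.4 CPM in c without DRB. All 3 libraries with DRB lay far below all 3 without it. The genotypes overlapped when pooled over DRB, but with and without DRB alike the rhau_sko libraries were above those of c. The additive sko change was 0.54 (log2), which did not pass (adjusted p 0.166 in edgeR). The groups without DRB, and not those with it, held the highest Herpud1 of the 10 groups. The means with DRB were 5.53 CPM in rhau_sko and 2.93 CPM in c. They were above the 1.01 CPM of GV_C and the means of the growing and Trim21 experiments, which were normalised separately. The fitted DRB change was -3.57 ± 0.30 (log2, SE), 11.9-fold lower, with an adjusted p of 0.00237 in edgeR. The call was lost without the remaining library of c with DRB (adjusted p 0.0610) or without that of rhau_sko (0.0582), at log2 changes of -3.25 and -3.93. The only other gene called in edgeR in this comparison was C730034F03Rik, which was higher by 3.68 ± 0.44 (log2, SE), whereas DESeq2 called 522 genes and edgeR without the filter on low counts 492.

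In GV oocytes Herpud1 was at 7.73, 16.8 and 7.69 CPM after cPDS and at 1.08, 1.02 and 0.938 CPM in GV_C. Every treated library was above every control library, and the treated libraries spread more. The log2 change was 3.38 ± 0.28, 10.4-fold higher, with an adjusted p of 8.24e-08 in edgeR. In growing oocytes the gene rested on 26, 10 and 60 counts in sko and 14, 4 and 0 counts in control. These groups overlapped, and the log2 change of 2.21 ± 0.80 (adjusted p 0.0289 in edgeR) was lost when any of 4 libraries was left out, with adjusted p up to 0.224. After Trim21 only 4 counts were seen in 3 libraries, all in 1 of them, against 14 in the controls.

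Hspa5 encodes BiP, the main Hsp70 chaperone of the ER lumen, and its mRNA is the usual marker of the unfolded protein response. It was at 75.8, 95.5 and 72.0 CPM after cPDS and at 381, 330.5 and 360.3 CPM in GV_C. The groups were far apart, and the change of -2.14 ± 0.10 (log2, SE) was 4.42-fold lower with an adjusted p of 1.01e-10 in edgeR. Herpud1 and Hspa5 thus changed in opposite directions in the same libraries.

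In the second experiment Hspa5 was at 251 CPM in rhau_sko and 166 and 173 CPM in rhau_sko with DRB, against 376 and 339 CPM in c and 296 CPM in c with DRB. All 3 sko libraries were below all 3 c libraries, with a log2 change of -0.65 ± 0.11 (adjusted p 0.000911 in edgeR). Within each genotype the libraries with DRB were also the lower ones, by 0.42 ± 0.11 (log2, SE) in the additive fit, which did not pass in edgeR (adjusted p 0.179) and did in DESeq2 (0.0144). In growing oocytes the level was 117, 101 and 123 CPM in sko and 125, 155 and 157 CPM in control. The groups did not overlap but nearly touched, and the fall of 0.36 ± 0.13 on the log2 scale was not called when libraries were scaled by total count alone (-0.18, adjusted p 0.317 in edgeR). After Trim21 the level was 249, 233 and 262 CPM against 203, 211 and 189 CPM in control at 3 h. The treated libraries were all higher, by 0.31 ± 0.10 (log2, SE), which missed the threshold (adjusted p 0.0781 in edgeR).

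**Figure D3:**
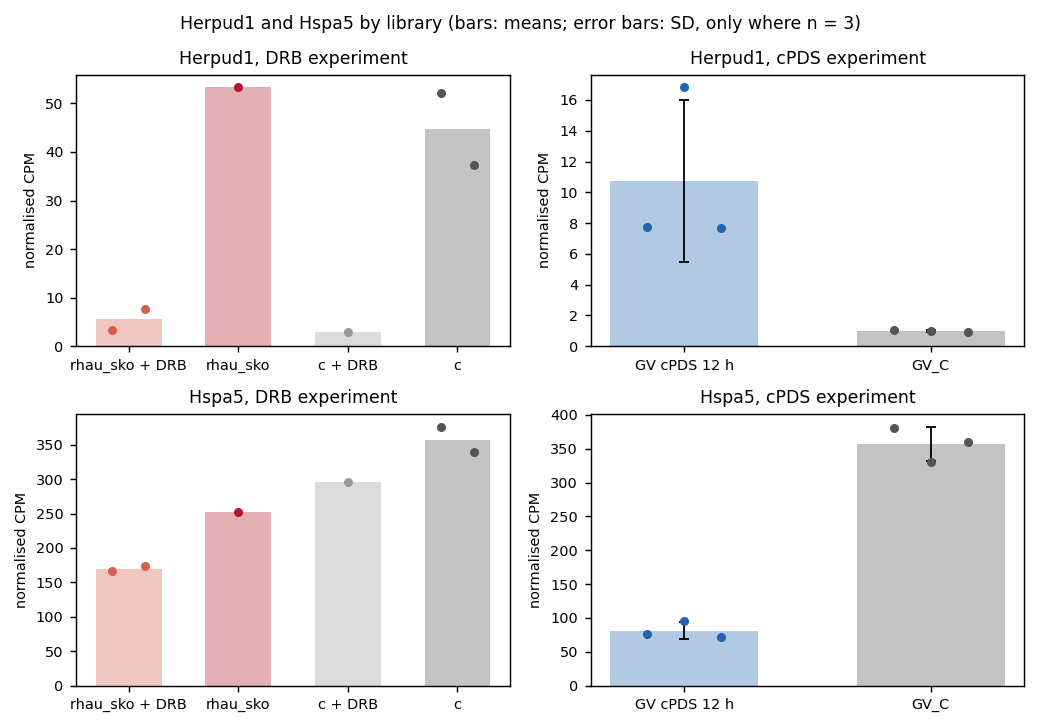
Normalised CPM of Herpud1 (top) and Hspa5 (bottom) in the DRB experiment (left) and the cPDS experiment (right). Points are libraries, bars are means from 0, and error bars, drawn where n = 3, are SD. Herpud1 is at 2.93 to 7.63 CPM with DRB, and after cPDS Herpud1 is above and Hspa5 below every GV_C library.

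Eif2ak3 encodes PERK, the eIF2 kinase of the ER membrane. It was at 7.01, 9.76 and 9.24 CPM after Trim21 and at 19.7, 28.2 and 27.5 CPM in control at 3 h. The groups were well apart, and the change of -1.55 ± 0.20 (log2, SE) was 2.93-fold lower with an adjusted p of 0.000331 in edgeR. The control libraries at 3 h, and not the treated ones, held the highest Eif2ak3 of the 10 groups, with a mean of 25.1 ± 4.76 CPM (SD, n = 3) beside 4.42 ± 0.0285 CPM in GV_C (SD, n = 3). In the second experiment it was at 8.04 CPM in rhau_sko and 6.32 and 5.80 CPM in rhau_sko with DRB, against 9.96 and 8.48 CPM in c and 10.8 CPM in c with DRB. The sko libraries were lower without exception, yet the change of -0.51 ± 0.22 (log2, SE) missed the threshold (adjusted p 0.0957 in edgeR). In growing oocytes its means were 2.99 ± 0.522 CPM in sko and 2.98 ± 0.812 CPM in control (SD, n = 3 each), and its log2 change of 0.01 ± 0.27 took either sign under other settings.

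Atf4 encodes the transcription factor at the centre of the integrated stress response, whose amount is set mostly by translation. It was at 311, 271 and 351 CPM in growing sko and 239, 263 and 212 CPM in growing control oocytes. These are the highest levels of Atf4 in any of the 10 groups, and the groups did not overlap, with a log2 change of 0.39 ± 0.13 (adjusted p 0.0205 in edgeR). The call was lost without control replicate 3 (adjusted p 0.0726), sko replicate 4 (0.0544) or sko replicate 6 (0.140). After cPDS Atf4 was at 122, 131 and 130.1 CPM, against 95.0, 81.5 and 89.6 CPM in GV_C. The groups did not overlap and the log2 change of 0.52 ± 0.08 passed (adjusted p 2.99e-05 in edgeR). The second experiment gave a log2 change of 0.17 ± 0.15 for sko and -0.04 ± 0.15 for DRB, and the Trim21 experiment -0.11 ± 0.14, all with groups that overlapped.

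Ddit3 encodes CHOP, the transcription factor linked to cell death after long ER stress. It was at 66.6, 66.3 and 63.3 CPM after cPDS and at 81.5, 97.4 and 95.4 CPM in GV_C. The groups did not overlap, and the log2 change was -0.48 ± 0.08 (adjusted p 0.00013 in edgeR). Growing sko oocytes had 74.2, 104 and 111 CPM and growing controls 73.6, 66.2 and 74.2 CPM. Sko replicates 5 and 6 were higher and replicate 4 was level with the controls, so that the log2 change of 0.43 ± 0.15 (adjusted p 0.0194 in edgeR) was lost without any 1 of 3 libraries. Ddit3 shares 68 exon bases with Mars and 13 with RP24-341K21.6, both on the opposite strand, and the strand setting of the counting is not given in the sources used here, so reads of these genes cannot be told apart there.

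Xbp1 encodes the transcription factor activated by IRE1, and its counts here include both splice forms. It was at 2.48, 1.69 and 2.62 CPM in growing sko and 1.11, 1.10 and 1.57 CPM in growing control oocytes. The groups did not overlap, and the log2 change was 0.85 ± 0.32 (adjusted p 0.0330 in edgeR), lost without any 1 of 4 libraries. In the second experiment it was at 3.18 CPM in rhau_sko and 2.81 and 4.18 CPM in rhau_sko with DRB, against 8.40 and 7.72 CPM in c and 3.96 CPM in c with DRB. The c libraries without DRB stood above all others, and the fitted sko change was -0.76 ± 0.34 (log2, SE; adjusted p 0.0992 in edgeR). Without the library of c with DRB it was -1.35 and passed (adjusted p 0.0363 in edgeR).

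Nupr1 encodes a small stress-induced chromatin protein, and Trib3 encodes a pseudokinase that damps signalling through AKT and feeds back on ATF4. In the second experiment Nupr1 was at 1.39 and 29.9 CPM in rhau_sko with DRB, 1.84 CPM in rhau_sko and 7.86 CPM in c with DRB, against 135 and 379 CPM in c. The c libraries without DRB stood far above all 4 others, and the additive sko change was -2.74 ± 2.39 (log2, SE; adjusted p 0.398 in edgeR). The test of the interaction gave 8.12 ± 1.82 (log2, SE), which missed the threshold (adjusted p 0.286 in edgeR), with 0.0330% of all 18178 genes called, 0.0110% higher and 0.0220% lower. The additive sko change of Nupr1 took the other sign, 1.01, without the library of rhau_sko, and passed at -7.13 without that of c with DRB (adjusted p 0.0161 in edgeR). Trib3 was likewise highest in c, on few reads, with 0 and 6 counts in rhau_sko with DRB, 4 in rhau_sko and 8 in c with DRB, against 36 and 158 in c. In each of the other 3 experiments both genes had group means of at most 1.16 CPM. The 16 granulosa and cumulus markers summed to 75.9 to 104 CPM in the c libraries, against 155 in rhau_sko, 119.6 to 180.5 in rhau_sko with DRB and 75.0 in c with DRB. Cyp19a1 alone gave 51.7 to 66.0 CPM of the sum in the rhau_sko libraries with and without DRB. The part of granulosa cells in the levels of Nupr1 and Trib3 was not tested.

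Ddit4 encodes REDD1, an inhibitor of the growth-promoting kinase complex mTORC1. It was at 23.9 CPM in rhau_sko and 36.8 and 51.2 CPM in rhau_sko with DRB, against 8.08 and 8.23 CPM in c and 10.9 CPM in c with DRB. All sko libraries lay above all c libraries, and the log2 change was 1.78 ± 0.19, 3.43-fold higher, with an adjusted p of 6.04e-05 in edgeR. Within each genotype the libraries with DRB were the higher ones, and the log2 change of 0.66 ± 0.19 for DRB did not pass in edgeR (adjusted p 0.200) and did in DESeq2 (0.0290). After cPDS Ddit4 was at 1.12, 1.26 and 1.71 CPM, against 3.49, 5.11 and 5.16 CPM in GV_C. The treated libraries were all lower, with a log2 change of -1.72 ± 0.22, 3.29-fold lower, and an adjusted p of 1.14e-05 in edgeR. After Trim21 it was at 5.35, 7.36 and 7.55 CPM against 8.23, 11.5 and 8.89 CPM in control at 3 h. The groups did not overlap, and the change of -0.51 ± 0.22 (log2, SE) missed the threshold (adjusted p 0.177 in edgeR). In growing oocytes the 21 to 34 counts in sko overlapped the 19 to 49 counts in control. The sko effect in growing oocytes differed from that in the second experiment by -2.33 ± 0.42 for Ddit4 (log2, SE; adjusted p 0.00129) and by 1.63 ± 0.47 for Xbp1 (adjusted p 0.0264), both in edgeR. These were 2 of 9 genes, beside 13.2% of all 16655 genes, 7.93% higher and 5.25% lower, and the experiment and the oocytes' stage cannot be told apart in that contrast.

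The interaction of genotype and DRB was called for 0 of the 9 genes in edgeR and for 0 in DESeq2. In edgeR 2 of the 9, Nupr1 and Atf4, had an unadjusted p under 0.05, beside 1493 of all 18178 genes tested. For Atf4 the interaction was -0.72 ± 0.21 (log2, SE), the level being 98.8 CPM in rhau_sko and 76.8 and 73.6 CPM in rhau_sko with DRB, against 71.0 and 66.4 CPM in c and 85.5 CPM in c with DRB. The rhau_sko library was thus the highest of the 6.

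Around these 9, 148 other genes of the same pathways were grouped in 8 lists, and all 148 were in the table. In growing oocytes 137 were tested, of which 23 were higher and 61 lower in sko than in control, 61.3% beside 53.7% of all genes. With libraries scaled by total count alone, which moved the median log2 change of all genes to 0.21 in place of 0.02, the split was 30 higher and 45 lower. In rhau_sko against c it was 18 higher and 48 lower of 142, 46.5% beside 37.8% of all genes, and after cPDS 22 higher and 64 lower of 140, 61.4% beside 50.8%. After Trim21 it was 5 higher and 1 lower of 133, 4.51% beside 11.5% of all genes. For DRB none of 142 was called in edgeR. There 14 had an unadjusted p under 0.05, 5 higher and 9 lower, beside 2071 of all 15923 genes. DESeq2 called 5 pathway genes for DRB, beside 522 of all 15923 genes.

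**Figure D4:**
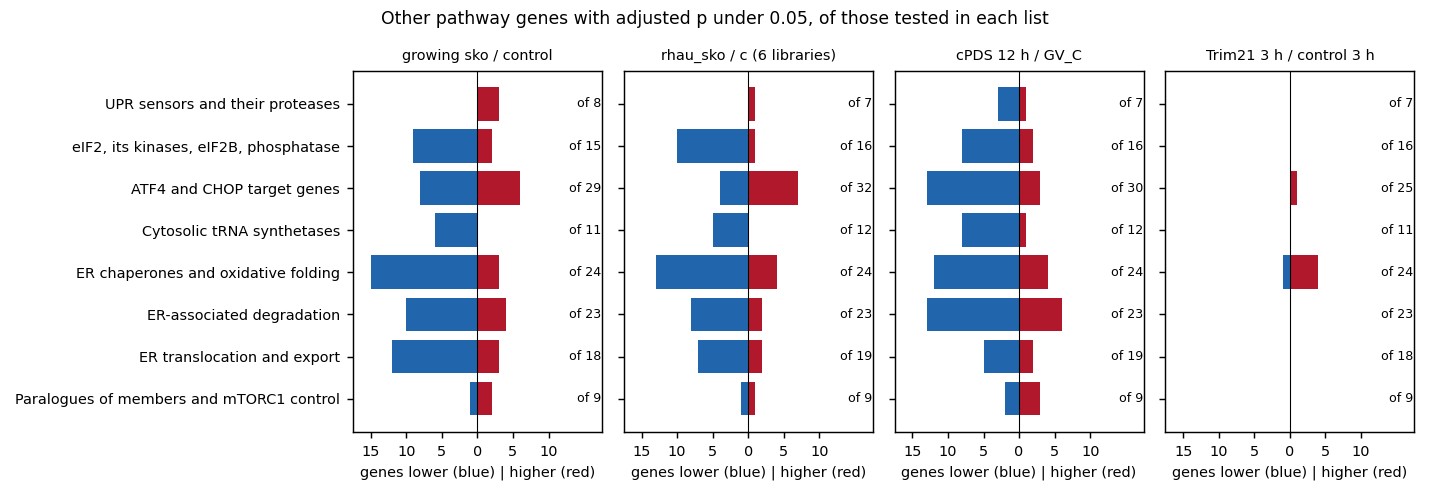
Number of genes of each of the 8 pathway lists that were higher (red, to the right) or lower (blue, to the left) with an adjusted p under 0.05, with the number tested at the right edge, in 4 comparisons. ER chaperones and oxidative folding had 15 lower and 3 higher of 24 in growing sko, and 1 lower and 4 higher of 24 after Trim21.

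The chaperones and folding enzymes of the ER were more often lower than higher in sko oocytes. Of 24 in the list, 3 were higher and 15 lower in growing sko, with a median log2 change of -0.61 beside 0.02 for all genes, and 4 were higher and 13 lower in rhau_sko, with a median of -0.52 beside -0.01. Calr, encoding the calcium-binding chaperone calreticulin, was at 85.1 ± 6.17 CPM in growing sko and 278 ± 21.8 CPM in growing control (SD, n = 3 each), a log2 change of -1.71 ± 0.12. Dnajc3, encoding an ER co-chaperone of BiP that also inhibits PERK, was at 216 ± 3.27 CPM in growing sko and 591 ± 64.7 CPM in growing control (SD, n = 3 each). In rhau_sko the leading genes of the list were Calr, lower by 1.53 ± 0.13 (log2, SE), and Pdia4, a disulfide isomerase, lower by 1.26 ± 0.13. Dnajb9, a BiP co-chaperone that was picked out after its values were seen, was higher in both sko comparisons, by 1.18 ± 0.19 and 0.72 ± 0.18 (log2, SE), and lower by 1.23 ± 0.13 after cPDS. With DRB its log2 change was -1.22 ± 0.18, which missed the threshold in edgeR (adjusted p 0.0590) and passed in DESeq2.

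Pdia6, a disulfide isomerase that binds BiP and IRE1, moved in opposite directions in the GV and Trim21 experiments. It was at 29.2 ± 2.77 CPM after cPDS and 281 ± 7.76 CPM in GV_C, and at 199.8 ± 11.4 CPM after Trim21 and 52.2 ± 12 CPM in control at 3 h (SD, n = 3 each). The log2 changes were -3.27 ± 0.08 for cPDS and 1.94 ± 0.16 for Trim21. After cPDS the list had 4 higher and 12 lower of 24 (median log2 change -0.27 beside 0.01 for all genes). After Trim21 it had 4 higher, Pdia6, Canx, Hsp90b1 and Sil1, and 1 lower, Manf (Canx, Hsp90b1 and Sil1 were named after their values were seen), with a median of -0.01 beside -0.01. Ero1l, the oxidase that supplies disulfides and a CHOP target, was the only other pathway gene called after Trim21 in edgeR, higher by 1.17 ± 0.32 (log2, SE), with groups that overlapped. DESeq2 did not call Ero1l and called 10 pathway genes, the 5 chaperone genes named above and Ssr3, Ube2j1, Ppib, Spcs1 and Eif2ak2. Over all 14191 genes DESeq2 called 1990 in that comparison.

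The list of eIF2, its kinases, its exchange factor eIF2B and its phosphatase regulators had 2 higher and 9 lower of 15 in growing sko, 1 higher and 10 lower of 16 in rhau_sko, and 2 higher and 8 lower of 16 after cPDS. Ppp1r15b, encoding the constitutive subunit that directs the phosphatase to eIF2, was at 7.94 ± 0.563 CPM in growing sko and 25.1 ± 5.39 CPM in growing control, and at 9.86 ± 0.724 CPM in rhau_sko and 25.0 ± 0.871 CPM in c (SD, n = 3 each, DRB libraries included). Its stress-induced counterpart Ppp1r15a, encoding GADD34, was at 12.1 ± 3.52 CPM after cPDS and 63.0 ± 3.39 CPM in GV_C (SD, n = 3 each), a log2 change of -2.38 ± 0.15. Impact, an inhibitor of the eIF2 kinase GCN2, went the other way in growing oocytes, at 51.3 ± 5.38 CPM in sko and 4.06 ± 1.11 CPM in control (SD, n = 3 each). Its sko effect differed between the experiments by 2.85 ± 0.34 (log2, SE; adjusted p 2.13e-05 in edgeR).

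Genes that ATF4 and CHOP are known to induce moved both ways. In growing sko, where both were higher, 6 of 29 were higher and 8 lower, with a median log2 change of -0.05 beside 0.02 for all genes. After cPDS, where Atf4 was higher and Ddit3 lower, 3 of 30 were higher and 13 lower, with a median of -0.53 beside 0.01. Cth, the cystathionine gamma-lyase of cysteine synthesis, and Eif4ebp1, an inhibitor of the cap-binding protein, led in growing sko, at 225 ± 2.60 and 13.2 ± 0.429 CPM in sko and 56.3 ± 8.92 and 2.14 ± 0.62 CPM in control (SD, n = 3 each). Shmt2, the mitochondrial serine hydroxymethyltransferase, led after cPDS, at 4.59 ± 1.04 CPM and 37.4 ± 1.06 CPM in GV_C (SD, n = 3 each). In rhau_sko 7 of 32 were higher and 4 lower, while the median of the list was -0.20 beside -0.01. Aldh1l2, a mitochondrial folate enzyme, was at 6.52 ± 1.37 CPM in rhau_sko and 0.757 ± 0.510 CPM in c (SD, n = 3 each, DRB libraries included). The cytosolic tRNA synthetases had 0 higher and 6 lower of 11 in growing sko, 0 higher and 5 lower of 12 in rhau_sko, and 1 higher and 8 lower of 12 after cPDS.

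The list of the other sensors and their proteases had 3 higher and 0 lower of 8 in growing sko, 1 higher and 0 lower of 7 in rhau_sko, and 1 higher and 3 lower of 7 after cPDS. Mbtps1, the site-1 protease that cuts ATF6, was among those higher in growing sko, by 0.79 ± 0.22 (log2, SE). Creb3, a membrane-bound transcription factor related to ATF6, was at 14.5 ± 1.68 CPM in growing sko and 4.74 ± 0.803 CPM in growing control (SD, n = 3 each), although its exons overlap those of Tln1 and Gba2 on the other strand. After cPDS Creb3 was lower, by 0.82 ± 0.13 (log2, SE). Ern1, encoding IRE1, was the gene that was higher after cPDS, by 0.28 ± 0.06 (log2, SE), at 270.1 ± 5.39 CPM and 222 ± 2.55 CPM in GV_C (SD, n = 3 each). Genes of ER-associated degradation, the process that Herpud1 serves, had 4 higher and 10 lower of 23 in growing sko, 2 higher and 8 lower in rhau_sko, and 6 higher and 13 lower after cPDS. H47, the older symbol of the gene for selenoprotein S, was at 5.86 ± 1.42 CPM in growing sko and 0.335 ± 0.0733 CPM in growing control (SD, n = 3 each). Genes of ER translocation and export had 3 higher and 12 lower of 18 in growing sko, 2 higher and 7 lower of 19 in rhau_sko, and 2 higher and 5 lower of 19 after cPDS. The last list, of paralogues of the members and mTORC1 control genes, had 2 higher and 1 lower of 9 in growing sko, 1 higher and 1 lower in rhau_sko, and 3 higher and 2 lower after cPDS.

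Some markers of other cells moved with genotype as well. Fshr, the granulosa receptor of follicle-stimulating hormone, was at 37.0 ± 1.72 CPM in growing sko and 0.342 ± 0.088 CPM in growing control, and at 23.5 ± 7.69 CPM in rhau_sko and 1.34 ± 1.22 CPM in c (SD, n = 3 each, DRB libraries included). Cyp19a1, the aromatase, was at 20.1 ± 1.02 CPM in growing sko and 9.28 ± 2.02 CPM in growing control (SD, n = 3 each). With DRB libraries included, it was at 51.7 to 66.0 CPM in the 3 rhau_sko libraries and 30.0 to 41.9 CPM in the 3 c libraries. Of the granulosa markers tested, 4 of 9 were higher and 0 lower in growing sko, and 4 of 10 higher and 0 lower in rhau_sko, while Amh was at 0 in all 6 libraries of the second experiment. Of the 8 immune, endothelial and blood markers, 3 were tested in each sko comparison, with 1 higher and 2 lower in both. The higher one was Ptprc, the leukocyte antigen CD45, at 0.988 to 2.28 CPM in growing sko and at 0 in all 3 growing controls. In the second experiment it was at 3.59 ± 2.39 CPM in rhau_sko and 0.0456 ± 0.0184 CPM in c (SD, n = 3 each, DRB libraries included). Dcn, the stromal proteoglycan decorin, was higher by 0.90 ± 0.29 in growing sko and by 2.18 ± 0.34 in rhau_sko (log2, SE). Pecam1, an endothelial adhesion molecule, was lower by 0.59 ± 0.16 and 0.87 ± 0.14 in the same comparisons. It was at 42.6 CPM in c (mean of 2 libraries) and 43.6 CPM in c with DRB. In both of these groups the other endothelial marker Cdh5 was at 0, as were C1qa, Hbb-b1 and Hba-a1. The granulosa sum was 93.3 to 108 CPM after cPDS and 116 to 119.7 CPM in GV_C, and 70.1 to 80.8 CPM after Trim21 and 49.5 to 54.9 CPM in control at 3 h. The 7 theca and stroma markers summed to at most 7.70 CPM in any library. The 8 immune, endothelial and blood markers summed to 15.2 to 16.2 CPM after cPDS and 55.2 to 59.4 CPM in GV_C. Pecam1 made up most of both sums, with means of 13.6 CPM after cPDS and 55.3 CPM in GV_C. Hbb-b1 and Hba-a1 were at 0 in both groups, and Cdh5 and C1qa only after cPDS. The part of these cells in the results above was not tested.

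Across the 18 kept libraries of the first table, with log2 CPM centred on the mean of each experiment, the members did not move as 1 block. The highest Pearson correlation between members was 0.81 for Trib3 and Nupr1, and the lowest were -0.65 for Atf4 and Hspa5 and -0.63 for Herpud1 and Ddit4. Genes whose pattern was most like that of Herpud1, among 6205 compared, were Nlrp9a (0.90), Wdfy3 (0.89) and Zbtb44 (0.89). Those most like Hspa5 were Pecam1 (0.98), Fam114a2 (0.97) and Calu (0.97), the last encoding a calcium-binding protein of the ER. Those most like Atf4 were Nfyc (0.92), Dnahc11 (0.88) and Grm4 (0.88), and those most like Ddit3 were Derl2 (0.88), Rad17 (0.88) and Dnajc18 (0.84). The libraries share treatments and depth, so these values describe the 18 libraries and carry no test.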

How the data were processed

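The deposited tables hold whole-number read counts per gene, not normalised by the authors. Per the submitters' processing notes the build was mm9, and the tools named, with no role given, include STAR 2.5.2b, HISAT2 2.1.0 and featureCounts 2.0.1. The sources used here do not give strand or multimapping settings. Even numbers made up 53.0% to 56.2% of counts between 1 and 20 in growing oocytes and 68.3% to 89.2% in the other kept libraries, and whether both mates were counted was not tested.

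Counts were tested with edgeR 4.0.16 (quasi-likelihood test, TMM factors, filterByExpr with a minimum count of 10) in R 4.3.3, fitted per experiment on all genes with Benjamini-Hochberg adjustment and a threshold of 0.05. The 6 kept libraries of the second experiment were fitted with additive genotype and DRB terms, so each effect is adjusted for the other. The script was tested on simulated data. DESeq2 1.42.0, library size alone, RLE factors, no filter and each library left out were alternatives. The Trim21 table was joined by identical exon coordinates, which named 33581 features.

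The members and lists were chosen with earlier results of these data known. Named list genes are among the 2 with the smallest p of those called in each list and comparison, and other list genes are marked as chosen after their values were seen. LACE-seq, CUT&Tag and G-quadruplex sequencing samples were not analysed here.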

Additional observations from a re-analysis of the deposited data

Results flagged for a closer look

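The effect of sko in growing oocytes minus that in the second experiment was -2.33 ± 0.42 (log2, SE) for Ddit4 and 1.63 ± 0.47 for Xbp1. Both passed a test of the difference itself over 12 libraries (adjusted p 0.00129 and 0.0264 in edgeR). Ddit4 was 0.546 to 0.907 CPM in growing sko and 0.526 to 1.54 CPM in growing control. With DRB libraries included, it was 23.9 to 51.2 CPM in rhau_sko and 8.08 to 10.9 CPM in c. Xbp1 was 1.69 to 2.62 CPM in growing sko and 1.10 to 1.57 CPM in growing control. With DRB libraries included, it was 2.81 to 4.18 CPM in rhau_sko and 3.96 to 8.40 CPM in c.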

How the results depend on the processing

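Of the values of single genes under other settings, 473 kept their direction and side of the threshold, 21 fell short of it, 15 newly passed and 18 changed sign; the cause was not tested. In growing oocytes Eif2ak3 gave -0.0049 with RLE factors, -0.011 with no filter, -0.0050 in DESeq2 and -0.166 to 0.22 with a library left out, and Trib3 -0.207 to 0.80. In rhau_sko against c, leaving out a library gave Atf4 -0.189 to 0.51, Ddit3 -0.056 to 0.16 and Nupr1 -7.13 to 1.01. For DRB it gave Atf4 -0.39 to 0.315, Xbp1 -1.03 to 0.142, Eif2ak3 -0.41 to 0.222 and Nupr1 -5.03 to 3.10, and with all 8 libraries Atf4 gave 0.0046. For cPDS Trib3 ranged from -0.46 to 0.022. With a library left out, 1 to 4 members were called in growing oocytes, beside 6625 to 7687 of 14393 to 14764 genes tested. Such fits called 2 to 5 members in rhau_sko, beside 3699 to 6066 of 16472 to 16616 genes. They called 0 to 1 members for DRB, beside 1 to 8 of 16472 to 16616 genes. For Trim21 they called 1 to 2 members, beside 928 to 1936 of 14612 to 14708 genes. All 8 libraries gave 3917 of 15079 genes in rhau_sko. With no filter, 5 members were called in rhau_sko, beside 6723 of 24431 genes. For DRB this setting called 4 members, beside 492 of 24431 genes. DESeq2 called 3 members for DRB, beside 522 of 15923 genes. For the interaction it called 57 of 18178 genes, against 6 in edgeR. With values centred within each group, same-numbered replicates correlated between -0.059 and 0.091 and differently numbered ones between -0.158 and 0.102. With 3 libraries a group, centring ties these values together, so they cannot decide whether the numbers mark pairs. A replicate block gave 7559 of 16115 genes for cPDS against 8191, and 1762 of 14191 for Trim21 against 1630. With it 5 and 1 members were called, as without it. Low counts limit Herpud1 in growing oocytes and after Trim21, and Trib3 throughout.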
